A study of Mus musculus with 8 samples.

Results

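Myostatin, the activins and GDF11 are secreted proteins of the TGF-beta family, and muscle is one of the tissues in which they act. The 10 genes described here encode these ligands (Mstn, Gdf11, and Inhba and Inhbb for the activin subunits), the receptors they share (Acvr2a, Acvr2b and Acvr1b) and proteins that bind the ligands outside the cell (Fst, Fstl3 and Wfikkn2). They were picked by name from the array's gene annotation, and every non-control probe carrying such a name was used. This gave 14 probes of 56605 on the array, each present as 1 spot, and 10 genes of 24884 named ones. Of these, 12 probes of 9 genes were bright enough to be tested.

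As background, the ligands bind a type II receptor (ACVR2A or ACVR2B), which activates a type I receptor such as ALK4, the product of Acvr1b, and the type I receptor phosphorylates SMAD2 and SMAD3. In skeletal muscle this signal restrains growth: loss of myostatin gives large muscles in mice, cattle and people, and excess follistatin does so in mice. Much of the control lies in the proteins themselves, through cleavage of precursors, latent complexes and binding by antagonists, and an array of RNA sees none of that.

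The tissue was tibialis anterior, a mostly fast-twitch muscle at the front of the lower leg, from male C57BL/6J mice aged 14 weeks. In the P. gingivalis group (4 arrays), Porphyromonas gingivalis, a bacterium found in periodontal pockets, had been given orally for 6 weeks, starting at 8 weeks of age, in 100 µL saline by feeding needle. The control group (4 arrays) is labelled as control without further detail, and per the protocol mice ate a high-fat diet. The comparison asks what the muscle expresses after oral P. gingivalis. The labels do not say outright that each sample is 1 mouse, so p-values measure the spread between these samples, which might be technical.

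All values are log2 signals relative to the 75th percentile of the same array, so 0 is that percentile, and differences are P. gingivalis minus control. A brighter probe is not taken to mean a more abundant RNA, since probes differ in how well they hybridise, and levels of different genes are therefore not ranked. In a whole muscle, fewer cells of a type and less RNA per cell cannot be told apart. The 75th percentile itself was 238 to 255 intensity units on P. gingivalis arrays and 275 to 306 on control arrays. Correlations between arrays were 0.9909 to 0.9949, 0 spots were saturated, and all 10 muscle fibre markers checked, among them Pvalb, Tnnt3 and Acta1, were well above background on all 8 arrays. P. gingivalis arrays lay in slide row 2 and control arrays in slide row 1, and the effect of the row cannot be told apart from that of the group.

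The group labels themselves are in doubt. The authors' separate value table was set against the scanner files by correlation across probes, which paired each column with 1 array: the labels were identical in 2 of 8 pairs, and the group was shared in 4 of 8. P. gingivalis arrays 3 and 4 and control arrays 1 and 2 have the same group in both sources. P. gingivalis arrays 1 and 2 match columns labelled control in the value table, and control arrays 3 and 4 match columns labelled P. gingivalis there. The groups used here come from the scanner files, and each tested member and named pathway gene that was tested also has its difference under the value table's groups and for the 4 undisputed arrays.

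Probe sequences are shown for an antagonist (Fst), a ligand it binds (Inhba) and the member that was not detected in most samples (Gdf11), to make plain what was hybridised. They are the probes as the array files give them, 5′ to 3′, with the cysteine codons (TGC or TGT) of reading frame 3 in capitals, a frame that holds no stop codon in any of them: cysteines hold together the cystine-knot fold of the ligands and the folds of follistatin. The Fst probe is positioned on mm9 at chr13:115244692-115245364, minus strand, a span of 673 bases for a probe of 60 bases, so it crosses an intron and matches spliced RNA. The Inhba probe is at chr13:16118634-16118693, plus strand, and the Gdf11 probe, which has no cysteine codon in that frame, at chr10:128322284-128322343, minus strand.
Fst: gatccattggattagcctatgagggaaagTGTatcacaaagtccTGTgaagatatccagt
Inhba: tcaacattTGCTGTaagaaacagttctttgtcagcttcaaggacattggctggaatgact
Gdf11: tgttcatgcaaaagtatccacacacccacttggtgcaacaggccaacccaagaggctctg

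No member passed the adjusted threshold of 0.05, and neither did any other probe: 0 of 31649 tested probes were called (0%), while 3544 had an unadjusted p under 0.05. Without adjustment, 2 of the 9 tested members were under 0.05, Acvr1b with the higher signal in P. gingivalis muscle and Inhbb with the lower. With normexp background correction, 3 members were under 0.05 (Acvr1b, Acvr2b and Inhba), against 26.4% of all genes, and Inhbb was not among them. The 2 members as first counted are 22.2% of those tested, set against 10.7% of all 16034 tested genes, and with 9 genes each one weighs heavily in such a share. In 0 of the 9 members did the groups fail to overlap, against 7.07% of all tested genes. Signals were higher in P. gingivalis muscle for 7 members and lower for 2. The median difference was 0.08, against -0.01 over all tested genes, and the lowest adjusted p of any member was 0.367.

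**Figure D1:**
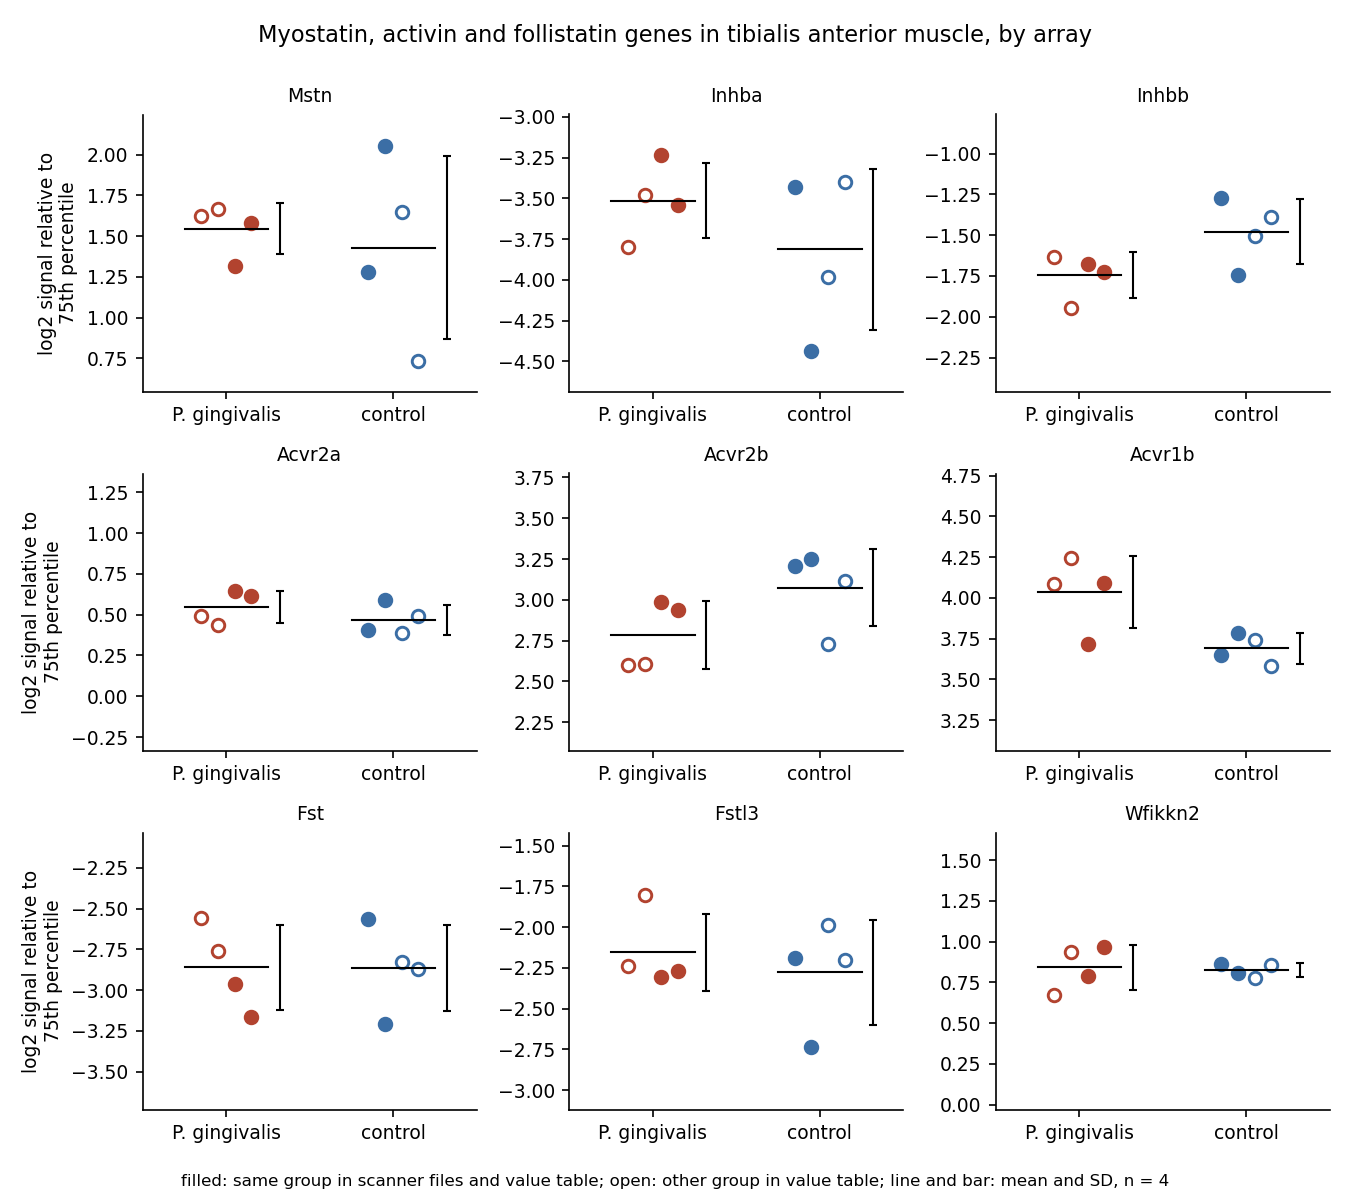
Log2 signal relative to the array's 75th percentile (vertical axis, the same height of range in every panel) for the 9 tested members, P. gingivalis arrays on the left and control arrays on the right of each panel. Points are arrays, filled where both sources give the array the same group and open where the value table gives the other group; lines and bars are the mean and SD of 4 arrays. Control Mstn points run between 0.74 and 2.06, and the groups overlap in every panel.

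Mstn encodes myostatin, made by muscle fibres as a brake on their own growth. Its probe lies at chr1:53124482-53124541 (mm9, plus strand). The signal was 1.62, 1.67, 1.32 and 1.58 in P. gingivalis muscle, against 1.28, 2.06, 1.65 and 0.74 in control muscle. The control arrays held both the highest and the lowest value, and the P. gingivalis arrays all lay between them. The means were 1.55 ± 0.16 in P. gingivalis muscle and 1.43 ± 0.56 in control muscle (SD, n = 4 each). The difference was 0.12 ± 0.25 (SE), a 1.08-fold ratio with a 95% confidence interval of 0.727 to 1.62 (limma, adjusted p = 0.885). Repeated spots of other probes about as bright spread by 0.08 (median absolute deviation) within an array, less than the spread among control arrays. Without control array 4 the difference was -0.11, for the 4 undisputed arrays -0.22, and under the value table's groups -0.34.

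The 5 named genes whose values followed Mstn most closely over the 8 arrays were Ier5, Pgbd5, Cfb, Chga and Zfp229. Likeness was the root mean square difference of values centred on each gene's own mean, and it was 0.154 for Ier5 and 0.175 for Zfp229, against 0.361 for Mstn's own variation. Each of the 5 had its lowest centred value on control array 4, for example -0.62 for Ier5 and -0.89 for Chga. These are the closest of 16029 genes compared, and were chosen for their closeness.

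Gdf11 encodes GDF11, a close relative of myostatin that shares its receptors. Its probe was well above background on 0 P. gingivalis arrays and 1 control array, so it was not tested and no fold is given. The signal was -5.27, -5.33, -5.83 and -5.44 in P. gingivalis muscle, against -4.84, -4.92, -5.94 and -5.69 in control muscle. At this signal, repeated spots within an array spread by 0.49, about as much as these values differ. Gdf11 was therefore not detectable in most of these samples with this probe.

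Inhba encodes the activin A subunit, a ligand that can also restrain muscle mass. The signal was -3.80, -3.48, -3.23 and -3.54 in P. gingivalis muscle, against -3.43, -4.44, -3.98 and -3.40 in control muscle. Control arrays 1 and 4 sat among the P. gingivalis values and control arrays 2 and 3 lay below all of them. The means were -3.51 ± 0.23 in P. gingivalis muscle and -3.81 ± 0.49 in control muscle (SD, n = 4 each). The difference was 0.30 ± 0.24 (SE), 1.23-fold with an interval of 0.844 to 1.79 (adjusted p = 0.655). Without control array 2 it was 0.09, for the 4 undisputed arrays 0.55, and under the value table's groups 0.25.

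Inhbb encodes the activin B subunit, and its probe lies at chr1:121312160-121312219 (mm9, minus strand). The signal was -1.63, -1.95, -1.68 and -1.72 in P. gingivalis muscle, against -1.27, -1.74, -1.50 and -1.39 in control muscle. Control array 2 lay below 3 of the 4 P. gingivalis arrays, and the other control arrays lay above all 4. The means were -1.74 ± 0.14 in P. gingivalis muscle and -1.48 ± 0.20 in control muscle (SD, n = 4 each). The difference was -0.27 ± 0.12 (SE), 0.831-fold with an interval of 0.692 to 0.998 (adjusted p = 0.443). With 1 array left out at a time the difference lay between -0.36 and -0.20, and its unadjusted p was under 0.05 without P. gingivalis array 1 or control array 2 and above it without any 1 of the other 6. With another background correction (normexp) the difference was -0.12, its unadjusted p no longer under 0.05. Under the value table's groups the sign turned, to 0.08, and for the 4 undisputed arrays the difference was -0.19.

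Acvr1b encodes ALK4, a type I receptor for activins and myostatin. It had the lowest p of the members, and 2 separate probes read it. The brighter, at chr15:101043956-101044015 (mm9), read 4.09, 4.24, 3.72 and 4.09 in P. gingivalis muscle, against 3.65, 3.79, 3.74 and 3.58 in control muscle. Of the P. gingivalis arrays, 3 lay above every control array, and array 3 lay within the control range. The means were 4.04 ± 0.22 in P. gingivalis muscle and 3.69 ± 0.09 in control muscle (SD, n = 4 each). The difference was 0.35 ± 0.11 (SE), 1.27-fold with an interval of 1.06 to 1.52 (adjusted p = 0.367).

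The dimmer Acvr1b probe, at chr15:101042850-101042909, read -0.90, -0.84, -1.16 and -0.76 in P. gingivalis muscle, against -1.56, -1.25, -0.98 and -1.34 in control muscle. Here too P. gingivalis array 3 was the lowest of its group, and control array 3 was the highest of its own. The difference of 0.37 ± 0.14 (SE) was 1.29-fold, with an interval of 1.04 to 1.60 (adjusted p = 0.40). With the scanner files' groups both probes thus gave nearly the same size of difference. They were read on the same RNA and are not independent samples. In the value table under its own labels they parted, at -0.10 for the brighter and 0.008 for the dimmer. For the brighter probe the difference stayed between 0.28 and 0.45 when each array was left out in turn. It was 0.19 for the 4 undisputed arrays (adjusted p = 0.722) and -0.16 under the value table's groups. The dimmer probe stayed higher in P. gingivalis muscle in both settings.

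Acvr2b encodes a type II receptor with high affinity for myostatin. Its brighter probe, at chr9:119342560-119342619, read 2.60, 2.61, 2.99 and 2.94 in P. gingivalis muscle, against 3.20, 3.25, 2.73 and 3.12 in control muscle. Control array 3 lay within the P. gingivalis range and the other control arrays lay above it. The means were 2.78 ± 0.21 in P. gingivalis muscle and 3.08 ± 0.24 in control muscle (SD, n = 4 each). The difference was -0.29 ± 0.14 (SE), 0.817-fold with an interval of 0.652 to 1.02 (adjusted p = 0.479). The difference was -0.26 for the 4 undisputed arrays (adjusted p = 0.541), and under the value table's groups it was 0.03.

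The second Acvr2b probe, at chr9:119343711-119343770, belongs to a predicted transcript variant. It read -1.34, -0.80, -0.42 and -0.66 in P. gingivalis muscle, against -0.84, -0.68, -1.10 and -0.76 in control muscle. P. gingivalis arrays gave both its lowest and its highest value, and the difference was 0.04 ± 0.19 (SE, adjusted p = 0.95). The 2 Acvr2b probes thus disagreed in sign, so a statement about Acvr2b applies to the transcripts its brighter probe reads.

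Acvr2a encodes the other type II receptor of the ligands. Its brightest probe, at chr2:48758259-48758318, read 0.49, 0.44, 0.65 and 0.62 in P. gingivalis muscle, against 0.41, 0.59, 0.39 and 0.49 in control muscle. All 8 values lay within a narrow range, and the groups overlapped. The difference was 0.08 ± 0.08 (SE), 1.06-fold with an interval of 0.935 to 1.19 (adjusted p = 0.716). A dimmer probe, at chr2:48755621-48755680, gave -0.03 ± 0.15 (SE, adjusted p = 0.962). For the brightest probe the difference was 0.06 under the value table's groups and 0.13 for the 4 undisputed arrays. Another probe was well above background on none of the 8 arrays and was not tested.

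Set side by side within each array, the bright probes of Acvr1b and Acvr2b differed in opposite directions between the groups. With both genes centred on their means over the 8 arrays, Acvr1b minus Acvr2b was 0.55, 0.70, -0.20 and 0.22 in P. gingivalis muscle, against -0.49, -0.39, 0.08 and -0.47 in control muscle. Control array 3 lay above P. gingivalis array 3, and the groups were otherwise separate. The means differed by 0.64. Under the value table's groups both genes changed sign, as given above, and so did this contrast. For the 4 undisputed arrays both genes kept their direction. This pair was chosen after its values were seen, and the difference was not tested.

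**Figure D2:**
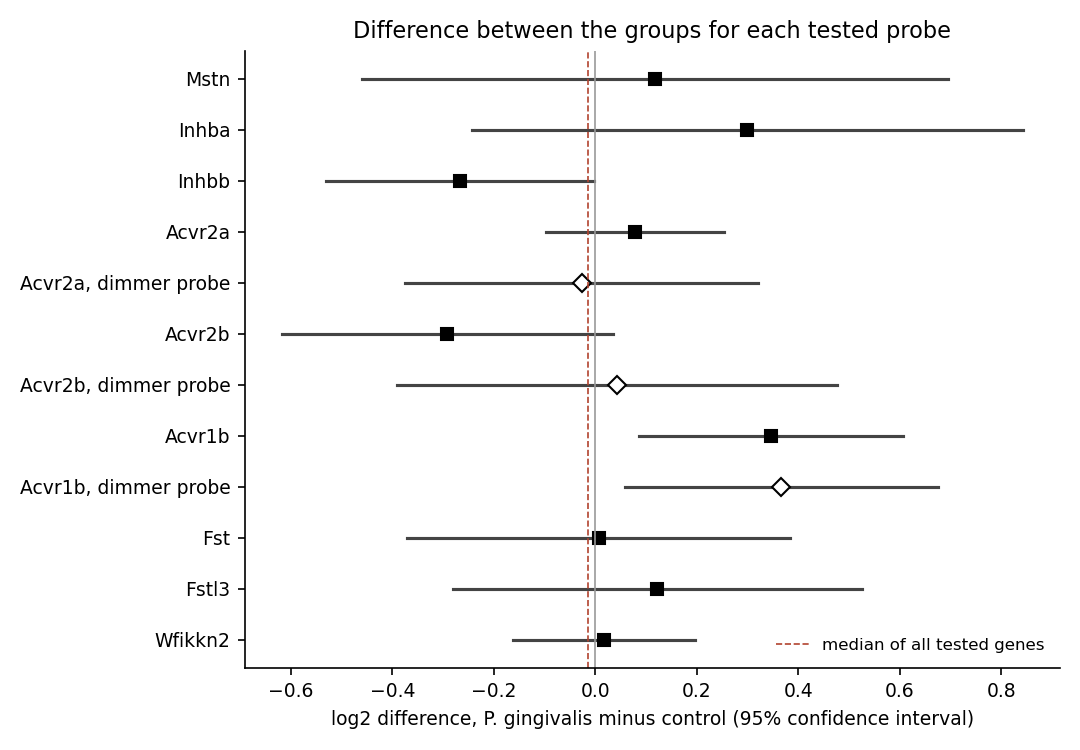
Log2 difference, P. gingivalis minus control (horizontal axis), for the 12 tested probes, with its 95% confidence interval. Squares are the brightest probe of a gene, open diamonds its dimmer probe, and the dashed line is the median of all tested genes at -0.01. The intervals of Inhbb and of both Acvr1b probes exclude 0, and those of the other 9 probes include it. For Inhbb the margin is narrow, its upper end lying at -0.003.

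Fst encodes follistatin, which wraps around activins and myostatin and blocks their receptor sites. The probe shown above read -2.56, -2.76, -2.96 and -3.16 in P. gingivalis muscle, against -2.57, -3.21, -2.83 and -2.87 in control muscle. Both groups covered nearly the same range. The means were -2.86 ± 0.26 in P. gingivalis muscle and -2.87 ± 0.26 in control muscle (SD, n = 4 each). The 95% confidence interval of the ratio was 0.773 to 1.31 (adjusted p = 0.994), so a change within those bounds was not detectable here. For the 4 undisputed arrays the difference was -0.18, and under the value table's groups also -0.18.

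The genes closest to Fst over the 8 arrays were Gm10413, Mrgprg, Nxph3, Ugdh and Prkcz, by the measure used for Mstn. The root mean square difference was 0.0382 for Gm10413 and 0.0841 for Prkcz, against 0.227 for Fst's own variation. Repeated spots of other probes about as bright as the Fst probe spread by 0.19 (median absolute deviation) within an array, close to that variation. These genes too are the closest of 16029 compared, and were chosen for their closeness. Of the 5, 4 gave their highest centred value on P. gingivalis array 1, and the other, Ugdh, on control array 1.

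Fstl3 encodes follistatin-like 3, which binds activins and circulates bound to myostatin. Its probe, at chr10:79244916-79244975, read -2.24, -1.80, -2.31 and -2.27 in P. gingivalis muscle, against -2.19, -2.73, -1.98 and -2.20 in control muscle. P. gingivalis array 2 stood above all others and control array 2 below. The difference was 0.12 ± 0.18 (SE), 1.09-fold with an interval of 0.823 to 1.44 (adjusted p = 0.817). Without control array 2 it was -0.03, and without P. gingivalis array 2 it was 0.0050. It was 0.05 under the value table's groups and 0.17 for the 4 undisputed arrays.

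Wfikkn2 encodes GASP-1, which binds myostatin and GDF11 and does not bind activins. Its probe, at chr11:94097276-94097335 (minus strand), read 0.67, 0.94, 0.79 and 0.96 in P. gingivalis muscle, against 0.86, 0.81, 0.77 and 0.86 in control muscle. All 4 control values lay inside the P. gingivalis range. The difference was 0.02 ± 0.08 (SE), 1.01-fold with an interval of 0.894 to 1.15 (adjusted p = 0.952), with 0.03 under the value table's groups and 0.04 for the 4 undisputed arrays. Of the members, Wfikkn2 and Acvr2a thus had the narrowest intervals, and a change of the size seen for Acvr1b lies outside both.

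Mstn was also set against its antagonists within each array, both genes centred as above. Mstn minus Fst averaged 0.06 ± 0.25 in P. gingivalis muscle and -0.06 ± 0.74 in control muscle (SD, n = 4 each). Mstn minus Wfikkn2 averaged 0.05 ± 0.18 in P. gingivalis muscle and -0.05 ± 0.59 in control muscle. Both differences were far smaller than the spread among control arrays.

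**Figure D3:**
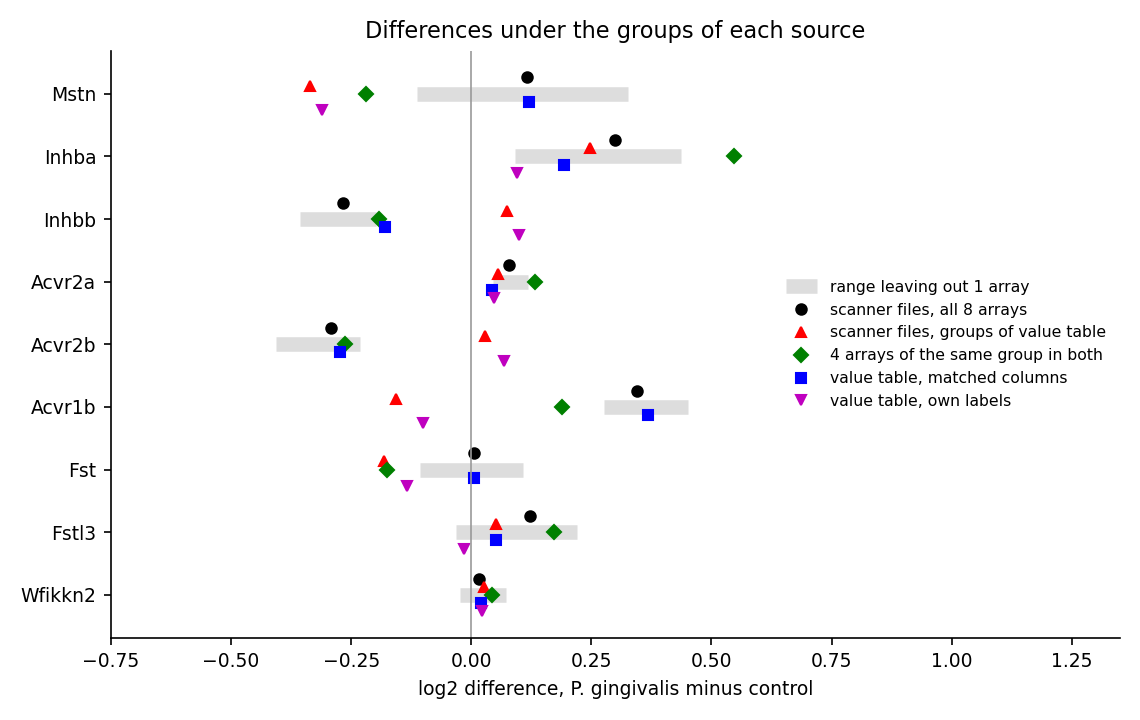
Log2 difference, P. gingivalis minus control (horizontal axis), for each tested member under the groups of each source: scanner files with all 8 arrays, scanner files with the value table's groups, the 4 arrays of the same group in both, and the value table with matched columns and with its own labels. Grey bars are the range when each array is left out in turn. For Acvr2a the value table holds only a dimmer probe, so its value table points read another probe than the scanner points. Acvr1b lies at 0.35 with the scanner files' groups and at -0.16 with those of the value table.

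The rest of the pathway was read from lists of other genes, grouped by role. Each list had 1 gene under an unadjusted p of 0.05, against 10.7% of all tested genes, and 0 past the adjusted threshold. Of 9 other ligands and subunits, 5 were higher and 4 lower, with a median difference of 0.003 and 1 gene under an unadjusted p of 0.05. That gene was Tgfb1, for TGF-beta 1, at -0.26 (adjusted p = 0.392), but its sign depended on the setting: 0.20 under the value table's groups, -0.06 for the 4 undisputed arrays and 0.05 with normexp. Tgfb2, a related ligand, differed by 0.11, with -0.05 under the value table's groups and 0.06 for the 4 undisputed arrays. Inha, the inhibin subunit that pairs with the activin subunits to form activin antagonists, differed by 0.30 (adjusted p = 0.454), with 0.22 under the value table's groups and 0.52 for the 4 undisputed arrays.

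Of 10 genes for ligand maturation and storage, 9 were tested, 7 of them higher and 2 lower, with a median of 0.21. Furin encodes the protease that cleaves myostatin and activin precursors. Its brightest probe read 8.43, 8.41, 8.45 and 8.47 in P. gingivalis muscle, against 8.65, 8.51, 8.53 and 8.59 in control muscle. These groups did not overlap, but those of a second probe did. The difference was small, at -0.13 (adjusted p = 0.443), with -0.17 for the second probe, 0.01 under the value table's groups and -0.12 for the 4 undisputed arrays. Pcsk6, another precursor-cleaving protease, differed by 0.32 (adjusted p = 0.496), with 0.12 under the value table's groups and 0.44 for the 4 undisputed arrays. Fbn2, a fibrillin of the matrix, differed by 0.42 (adjusted p = 0.523), but by -0.35 under the value table's groups and 0.07 for the 4 undisputed arrays. Its probe was dim, well above background on 3 of 4 arrays in each group.

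Of 7 other receptors and co-receptors, 6 were tested, 5 higher and 1 lower, with a median of 0.06. Tgfbr3, the co-receptor betaglycan, which lets inhibin block activin receptors, differed by 0.19 (adjusted p = 0.442), with 0.10 under the value table's groups and 0.28 for the 4 undisputed arrays. Tgfbr1 differed by 0.03 and Acvr1 by -0.12, while Tdgf1, for the co-receptor Cripto, gave 0.15 with its brighter probe and -0.18 with another. Under the value table's groups Tgfbr1 was at -0.03, Acvr1 at 0.02 and Tdgf1 at 0.08, and for the 4 undisputed arrays they were at 0.003, -0.11 and 0.23 in that order. Acvr1c, which encodes the type I receptor ALK7, was well above background on 1 P. gingivalis array and 0 control arrays, and was not tested.

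Among 9 other extracellular antagonists, 8 were tested, 7 higher and 1 lower, with a median of 0.23, the highest median of the pathway lists. The gene with p under 0.05 was the lower one, Chrdl2, at -0.45 (adjusted p = 0.39), at -0.14 under the value table's groups and at -0.59 for the 4 undisputed arrays. It encodes a BMP-binding protein and was also on the satellite cell list. Fstl1 differed by 0.28 (adjusted p = 0.478), and its other probes gave 0.31 and -0.15. Chrdl1 differed by 0.31, and Wfikkn1, the relative of Wfikkn2, by 0.04. Under the value table's groups Fstl1 was at 0.06, Chrdl1 at -0.04 and Wfikkn1 at 0.09, and for the 4 undisputed arrays Fstl1 was at 0.34, Chrdl1 at 0.27 and Wfikkn1 at 0.12.

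The 12 genes of SMAD signalling lay close to 0 by their brightest probes, with 7 higher, 5 lower and a median of 0.01. Smad2 differed by -0.01, Smad3 by 0.01, Smad4 by -0.02 and the inhibitory Smad7, itself induced by the pathway, by -0.07 (adjusted p = 0.852). Ski, a SMAD co-repressor, differed by 0.08, and Smurf1, a ubiquitin ligase of the pathway, by 0.07. For these 6 genes the differences lay between -0.10 and 0.09 under the value table's groups and between -0.11 and 0.07 for the 4 undisputed arrays. Dimmer tested probes went both ways, with 0.29 for Smad7, 0.15 for Smad3, and 0.34 and -0.30 for Skil. A dimmer Smurf2 probe differed by -0.21 (adjusted p = 0.392), its groups not overlapping, against 0.02 for the brightest Smurf2 probe. Among the brightest probes the exception was Tgif1, a co-repressor of SMAD2 and SMAD3 that the pathway also induces. It read 0.13, 0.09, 0.37 and 0.44 in P. gingivalis muscle, against 1.20, 0.98, 0.64 and 0.58 in control muscle, and the groups did not overlap. The difference was -0.60 ± 0.15 (SE, adjusted p = 0.323), with -0.50 for a second probe, -0.09 under the value table's groups and -0.68 for the 4 undisputed arrays.

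Of 10 SMAD2 and SMAD3 target genes, a list that also holds Smad7 and Tgif1, 6 were higher and 4 lower, with a median of 0.10. Tgif1 was again the 1 gene under 0.05. Ccn2, for connective tissue growth factor, differed by 0.38 (adjusted p = 0.54), and Tgfbi by 0.17. Ccn2 was at 0.24 and Tgfbi at 0.18 under the value table's groups, and at 0.62 and 0.35 for the 4 undisputed arrays.

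By their brightest probes the 14 growth and atrophy genes divided evenly, 7 higher and 7 lower, with a median of -0.001. Dimmer tested probes went both ways, among them 0.54 for Foxo1, 0.41 for Mtor, and 0.24 and -0.68 for Mef2c. None of these passed the adjusted threshold. Fbxo32, for the atrophy ubiquitin ligase atrogin-1, read 3.70, 3.64, 3.43 and 3.76 in P. gingivalis muscle, against 3.80, 4.09, 3.91 and 3.77 in control muscle. The groups did not overlap, though P. gingivalis array 4 and control array 4 nearly met. The difference was -0.26 ± 0.10 (SE, adjusted p = 0.408), with -0.09 under the value table's groups and -0.35 for the 4 undisputed arrays. Foxo3, for a transcription factor of that atrophy programme, differed by 0.21 (adjusted p = 0.446), but by -0.07 under the value table's groups and 0.14 for the 4 undisputed arrays. Fbxo21 was at -0.17, with -0.17 under the value table's groups and -0.34 for the 4 undisputed arrays.

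**Figure D4:**
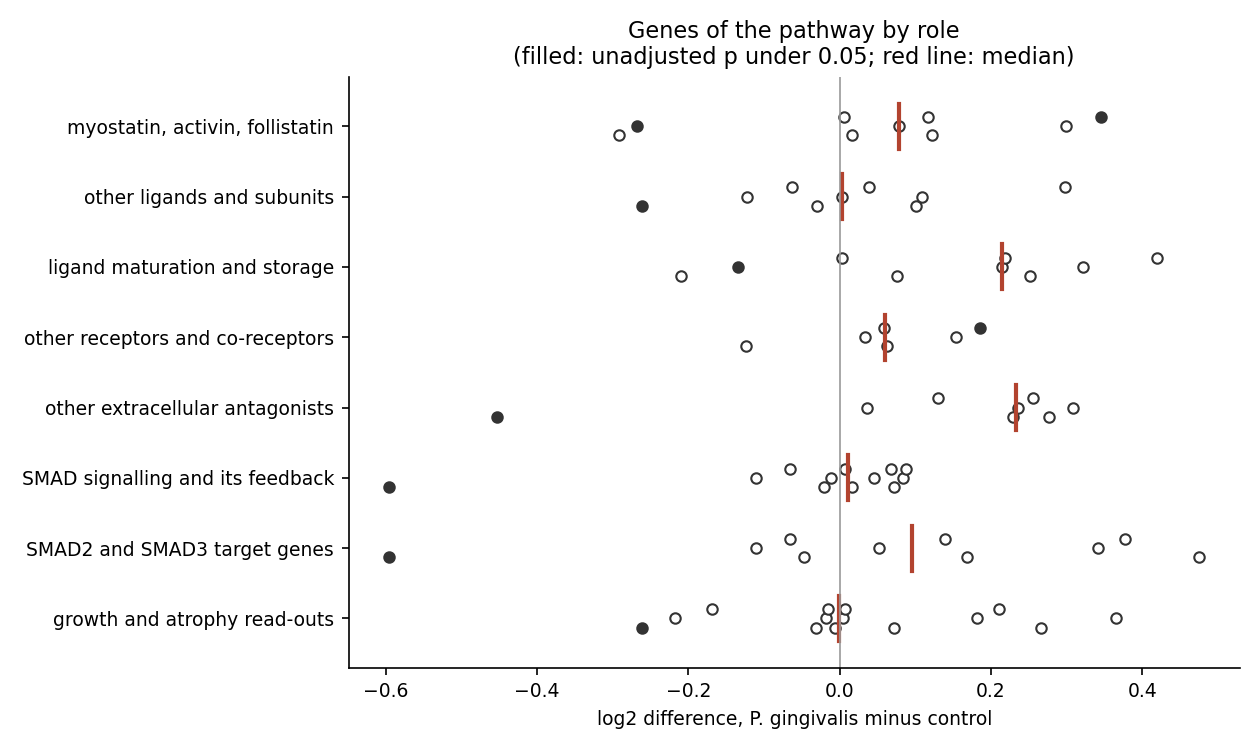
Log2 difference, P. gingivalis minus control (horizontal axis), for each tested gene of the members and of 7 other lists of the pathway, 1 point a gene. Filled points have an unadjusted p under 0.05 and red lines are list medians, which run between -0.001 and 0.23. Tgif1, at -0.60, stands on both SMAD lists.

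Markers of some other cell types differed with the groups. By their brightest probes all 8 fibroblast markers, Col1a1, Col3a1 and Lum among them, were higher in P. gingivalis muscle, with a median difference of 0.47. Of these, 5 of 8 had an unadjusted p under 0.05, against 10.7% of all tested genes, and 0 passed the adjusted threshold. Dpp4, at 0.58 by its brightest probe, gave -0.30 by a dimmer one (adjusted p = 0.389). Dimmer tested probes of Col1a1, Col3a1, Gsn and Pdgfra were all higher. The summed signal of all 8 fibroblast markers, relative to the 75th percentile, was 182 to 230 on P. gingivalis arrays and 128 to 187 on control arrays. Under the value table's groups their median was 0.13 and Col1a1 turned to -0.01, against 1.01 as labelled, while for the 4 undisputed arrays the median was 0.57. All 4 tested tendon markers were higher, with a median of 0.36, which was 0.22 under the value table's groups and 0.58 for the 4 undisputed arrays.

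Macrophage markers were higher for 6 of 7, with a median of 0.18, but of -0.09 under the value table's groups and 0.09 for the 4 undisputed arrays. All 8 endothelial markers were lower, with summed signals of 11.7 to 15.1 in P. gingivalis muscle and 14.1 to 16.6 in control muscle. Kdr at -0.59 and Cldn5 at -0.44 differed most, and the others lay between -0.13 and -0.01. Of the 8, 2 had an unadjusted p under 0.05, against 10.7% of all tested genes. The endothelial median of -0.05 turned to 0.18 under the value table's groups, where all 8 were higher, and to 0.15 for the 4 undisputed arrays. Muscle fibre markers were higher for 9 of 10, with a median of 0.11, which was -0.003 under the value table's groups and 0.10 for the 4 undisputed arrays. The other lists lay near 0: medians were 0.09 for adipocyte, -0.02 for satellite cell and -0.007 for Schwann cell markers. In that order, 0 of 6, 1 of 5 and 1 of 5 tested genes were under 0.05, against 10.7% of all tested genes. Those medians were -0.08, -0.02 and -0.12 under the value table's groups and 0.01, -0.04 and -0.07 for the 4 undisputed arrays. The part of these shifts in the members' values was not tested.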

How the data were processed

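The authors deposited 1 scanner file per array, with the Cy3 intensity of each spot, with 200 ng of total RNA labelled per array, per the labels. Per the file headers the intensity values came from Agilent Feature Extraction 11.0.1.1 (11.1 per the submitters' processing notes), were background-subtracted and detrended within the array, and probe positions are on mm9. The authors also deposited a table of log2 values for 24764 probes, 11 of them of these genes, with column medians of 7.357 to 7.374. Its centring and probe choice were stated in no source used here.

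Outlier spots (0.108% to 0.218%) were left out, log2 intensities were taken less each array's 75th percentile, and spots of a probe were averaged. Probes well above background on at least 4 of 8 arrays were tested: 31649 of 56605. Symbols came from RefSeq (GRCm38.p6, names only), with 12766 probes left without a current name. A gene's value is that of its brightest tested probe by mean signal. Groups were compared with limma 3.58.1 (lmFit, eBayes, no covariate) in R 4.3.3, with p-values adjusted by Benjamini-Hochberg across every tested probe and called at 0.05. The procedure was tested on simulated data. Figures used matplotlib 3.10.9. The number of arrays, 4 a group on 1 slide and 1 scan, limits the precision.

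Value table columns were matched to arrays by correlation over 24754 probes (best 0.833 to 0.880, next at most 0.0784). Replicate numbers equal the slide columns of the arrays. Same-number correlations of deviations were 0.0069 to 0.0629, each below that of the best other match, which cannot show whether samples were paired by design. Alternatives covered background correction, normalization, the dim-probe filter, the variance model, the replicate block, the value table, its groups, probe averaging and leaving out each array.

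The members and lists were chosen with earlier results of these data known. Named genes were all members, the 3 of lowest p in each other pathway list with any whose groups did not overlap, and 8 genes named whatever their values. The nearest patterns were the 5 closest genes to Mstn and to Fst.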

Additional observations from a re-analysis of the deposited data

Results flagged for a closer look

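Fstl3, for follistatin-like 3, stood out in 1 array of P. gingivalis muscle. Array 2 read -1.80 on the log2 scale relative to the 75th percentile, and the other P. gingivalis arrays lay between -2.31 and -2.24. The gap to the nearest array was 0.866 of the group's whole range, above Dixon's 95% critical value for 4 samples. Of 24 groups checked, 12 probes in each condition, 1 met this, and chance gives about 1 in 20. Without that array the Fstl3 difference between groups was 0.0050.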

How the results depend on the processing

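Member differences kept their direction under most settings, and in none did a member pass the adjusted threshold. The group labels mattered most. With the value table under its own labels the differences turned to -0.31 for Mstn, 0.10 for Inhbb, 0.068 for Acvr2b, -0.10 for Acvr1b, -0.13 for Fst and -0.016 for Fstl3. With the scanner values and the value table's groups they turned to -0.34 for Mstn, 0.075 for Inhbb, 0.028 for Acvr2b, -0.16 for Acvr1b and -0.18 for Fst. With the 4 undisputed arrays Mstn turned to -0.22 and Fst to -0.18. Normexp turned Wfikkn2 to -0.0014 and array weights turned Fst to -0.059. The cause was not tested.

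Leaving out each array in turn gave -0.11 to 0.33 for Mstn (negative without control array 4), -0.11 to 0.11 for Fst (negative without P. gingivalis array 1 or 2 or control array 2), -0.031 to 0.22 for Fstl3 (negative without control array 2) and -0.024 to 0.073 for Wfikkn2 (negative without P. gingivalis array 2 or 4 or control array 3). Probes past the adjusted threshold numbered 0 in each of these, and 2821 to 4019 had an unadjusted p under 0.05. Members under 0.05 numbered 1 to 2, and members whose groups did not overlap 0 to 1. With all 8 arrays these shares were 10.7% and 7.07% of all tested genes, and they move with the arrays used. The counts are therefore not read as results about the members. Acvr1b stayed under 0.05 in all 8, with 0.28 to 0.45.

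Probes past the adjusted threshold numbered 14 with normexp, 2 with no filter, 2 with an intensity trend and 1 with matched value table columns. At unadjusted p under 0.05 there were 9094 probes with normexp, 906 with the value table's own labels and 1224 with its groups. Members under 0.05 numbered 3 with normexp (26.4% of all genes) and 3 with an intensity trend (13.1% of all genes), 1 with quantile normalization, no filter, matched columns or 4 arrays, and 0 with the value table's labels or groups. For settings given without a share of all genes, the count is not read as a result about the members. Members whose groups did not overlap numbered 1 with normexp or matched columns, and 2 with 4 arrays (15.9%, 6.91% and 44.0% of all genes in that order). Normexp took Inhbb to -0.12, its unadjusted p no longer under 0.05.

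List counts under 0.05, 1 each as reported, were tried under settings partly chosen after seeing the data, as were the values of the other pathway genes and of the cell type markers. As reported, the share of all tested genes under 0.05 was 10.7%, and it moves with the setting, as given above for normexp. The list counts are therefore not read as results about the lists. Normexp gave 2 ligands, 4 maturation genes, 4 antagonists, 2 targets and 4 growth genes. Quantile normalization gave 0 receptors and 2 growth genes. Median centring gave 2 receptors, 3 antagonists and 0 growth genes. The value table's groups gave 0 ligands, receptors, antagonists, SMAD genes and targets, and 2 growth genes. The 4 arrays gave 0 ligands, 0 maturation genes, 3 antagonists, 2 targets and 4 growth genes.

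With the replicate number as a replicate block, 0 probes passed the adjusted threshold and 3406 had an unadjusted p under 0.05. Members under 0.05 again numbered 2 of 9, beside those 3406 of 31649 probes. Acvr1b kept a difference of 0.35 (adjusted p = 0.439). The replicate numbers equal the slide columns, so this block is also a column block. Whether they pair the samples by design is not known. Signal over background limits Gdf11 and the dim Acvr2a probe, and 4 arrays a group limit the rest: intervals of Mstn and Inhba span changes of over 1.5-fold.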
